A study of Mus musculus with 36 samples.

Results

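The 6 genes described here are Rcan1 and Rcan2, regulators of the phosphatase calcineurin, Ppp3ca and Ppp3cb, its catalytic subunits, and Rrad and Gem, small GTPases of the RGK family. They were chosen by name, through probe sets annotated to that single symbol, and all 6 of 6 were measured, by 11 probe sets. The whole table held 12393 genes named in this way.

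The data come from left ventricles of 36 mice, each measured for messenger RNA on its own Affymetrix array. One surgery, transverse aortic constriction (TAC), narrows the aorta and makes the left ventricle work against a higher pressure; the other was a SHAM operation, and all hearts were taken 8 weeks after surgery. Each surgery had 3 mice, given in the labels as biological replicates, at each of ZT03, ZT07, ZT11, ZT15, ZT19 and ZT23 (ZT, the time of day as the titles give it, in h), which makes 12 groups and 18 arrays per surgery. No genotype, transgene or drug is named for either surgery, and the sources used here do not give strain, sex, age or light schedule. The deposited values are relative: the 18 SHAM values of any probe set have a median of 0, and so do its 18 TAC values. A value of 0.50 therefore means 0.50 log2 units above the middle of that surgery's own mice, and no gene can be called higher or lower after TAC than after SHAM surgery. For the same reason the levels of cardiomyocyte markers, which would check the tissue, could not be read. In whole ventricle, fewer cells of a type and less RNA per cell cannot be told apart.

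Calcineurin is switched on by calcium bound to calmodulin. It removes phosphate from NFAT transcription factors, which then enter the nucleus, and in the heart this pathway is known for driving growth of the muscle cells under load. RCAN proteins bind calcineurin and restrain it, and a short form of Rcan1 is itself transcribed in response to NFAT, which closes a feedback loop. RGK GTPases bind the beta subunits of voltage-gated calcium channels and reduce the calcium current. Rad, the product of Rrad, is the main RGK protein of heart muscle, and its release from the channel carries the effect of adrenaline-like signals on the L-type current.

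Rcan1 lies on chromosome 16 (GRCm38.p6, minus strand, 92391951 to 92466169). RefSeq lists a start at the far end of the gene and another inside it, and the 250 bases before each are printed because they differ in the motifs that the clock, cAMP and calcineurin pathways are known to use. Capitals mark the E-box CACGTG, the cAMP response element TGACGTCA and the NFAT core GGAAA or TTTCC, each searched on both strands.

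Rcan1 outer start, chr16:92466170-92466419, minus strand: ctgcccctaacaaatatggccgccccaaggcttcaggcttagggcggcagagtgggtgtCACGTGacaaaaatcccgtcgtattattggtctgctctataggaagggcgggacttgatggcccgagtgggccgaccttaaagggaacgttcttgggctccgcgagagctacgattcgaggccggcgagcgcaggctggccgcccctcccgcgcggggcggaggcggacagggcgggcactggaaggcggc
Rcan1 inner start, chr16:92400079-92400328, minus strand: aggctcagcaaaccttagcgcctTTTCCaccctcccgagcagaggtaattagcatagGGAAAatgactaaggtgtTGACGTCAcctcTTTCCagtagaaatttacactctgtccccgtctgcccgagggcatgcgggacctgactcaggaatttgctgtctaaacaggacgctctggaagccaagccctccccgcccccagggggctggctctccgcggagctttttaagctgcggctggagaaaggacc

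The window of the outer start held 1 E-box, at bases 60 to 65, and neither of the other motifs. The window of the inner start held 3 NFAT cores, at bases 24 to 28, 58 to 62 and 88 to 92, and 1 cAMP response element at bases 76 to 83, but no E-box. Of all 32851 promoter windows of the same length, 6.02% held the E-box, 1.55% the full cAMP response element and 55.57% an NFAT core, so an NFAT core is common in windows of this length. A match is a description of letters, not a measured binding site. The files tie neither of the 2 Rcan1 probe sets to one start. Windows were at hand for Rcan2 and Ppp3cb as well, and none was given for Ppp3ca, Rrad or Gem. The Ppp3cb window held 3 NFAT cores, as many as the inner start of Rcan1. The Rcan2 window at chr17:43801102-43801351 held 2, and its other windows none. No Rcan2 or Ppp3cb window held the E-box or the cAMP response element. Also searched were the D-box, REV-ERB/ROR half-site, CArG box, MEF2 box and heat shock element, with no match in any window of these genes.

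Rhythms were measured by fitting a 24 h cosine in each surgery with limma over all genes and all 36 arrays. The amplitude is the distance from the mean to the peak in log2 units, and the fold is peak over trough of the fitted curve. P-values were adjusted by the Benjamini-Hochberg method over all 12393 genes, and 0.05 was the threshold. In SHAM hearts 1 of the 6 genes passed, Rrad, where 5.58% of all genes passed; 2 of 6 had an unadjusted p under 0.05, as did 18.8% of all genes. In TAC hearts 2 of 6 passed, Rcan1 and Rrad, against 4.35% of all genes. At an unadjusted p under 0.05 the TAC count was 3 of 6, with Rcan2, against 19.8% of all genes. None of the 6 passed the limma test of a difference in rhythm between TAC and SHAM, against 0.0484% of all genes, and 0 of 6 had an unadjusted p under 0.05, against 6.27% of all genes. A test that assumes no shape, over the 6 times, called 1 of 6 in SHAM, Rrad, where 3.37% of all genes passed, and 1 of 6 in TAC, again Rrad, where 5.26% passed. The unadjusted counts of this test were 1 of 6 in SHAM (13.2% of all genes) and 3 of 6 in TAC (20.3% of all genes). The corresponding test of a difference in time course called none of the 6, against 0.0161% of all genes, and 1 of 6, Rrad, had an unadjusted p under 0.05, which 5.57% of all genes had. All but Rcan1 and Rrad had fitted amplitudes of at most 0.133, beside a median over all genes of 0.0482 in SHAM and 0.0473 in TAC.

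**Figure D1:**
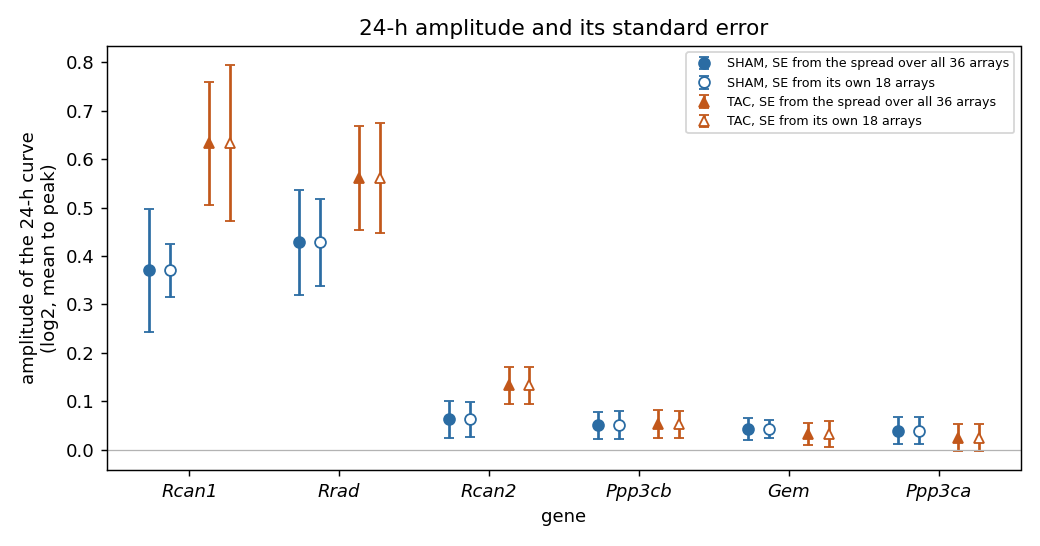
Fitted 24 h amplitude (y axis, log2 units) of each of the 6 genes in SHAM and TAC hearts, with bars of 1 standard error from the fit over all 36 arrays. Rcan1 (0.37 in SHAM, 0.633 in TAC) and Rrad (0.428 and 0.561) stand above the other 4 genes, which lie between 0.0244 and 0.133.

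Rcan1 was high from ZT19 to ZT03 and low at ZT11 in both surgeries, though in TAC the mice of ZT03 were far apart. In SHAM hearts its mice were at 0.24, 0.71 and 0.61 at ZT03, the highest group, and at -0.31, -0.24 and -0.44 at ZT11, the lowest. At ZT07 they were at -0.25, -0.15 and -0.14, at ZT15 at -0.01, -0.10 and -0.15, at ZT19 at 0.03, 0.28 and 0.04, and at ZT23 at 0.26, 0.22 and 0.40. All 9 mice of ZT07, ZT11 and ZT15 lay below 0 and all 9 of ZT19, ZT23 and ZT03 above it. The centring fixes the median of the 18 SHAM mice at 0, and the times were grouped after seeing these values. The split is therefore a description and not a test, and the share of all genes with such a split was not counted. The same holds for the other sets of mice described below as not overlapping. The fitted amplitude was 0.37 ± 0.127 (SE) with a peak at ZT23.9 ± 1.31 h and a fold of 1.67, and it did not pass with the spread estimated from both surgeries (limma, adjusted p = 0.177). With the 18 SHAM arrays fitted alone the SE was 0.0539 and the adjusted p 0.000417, a fit in which 9.41% of all genes passed. The test of any shape moved in the same way, from an adjusted p of 0.558 to 0.000208 with SHAM arrays alone, where 5.69% of all genes passed.

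In TAC hearts Rcan1 varied far more between mice of the same time. The 3 mice of ZT03 were at -0.87, 0.09 and 1.17, which spans nearly the whole range of the 18 TAC arrays. At ZT23 they were at -0.04, 0.94 and 1.44, and at ZT19 at 0.88, 0.14 and 0.80, so 5 of these 6 mice were above 0. The mice of ZT11 were at -0.82, -0.16 and -0.56, all below every mouse of ZT19 and ZT23. At ZT07 the values were 0.07, -0.27 and -0.40, and at ZT15 they were 0.37, -0.41 and -0.45. The group means ran from -0.512 ± 0.329 (SD, n = 3) at ZT11 to 0.782 ± 0.750 at ZT23. The fitted amplitude was 0.633 ± 0.127 with a peak at ZT22.1 ± 0.765 h and a fold of 2.41, and it passed (limma, adjusted p = 0.00624). It was the 13th largest TAC amplitude of all genes. With the 18 TAC arrays alone the SE was 0.161 and the adjusted p 0.126, in a fit in which 1.15% of all genes passed. The test of any shape gave an adjusted p of 0.0513 with all arrays and 0.395 with TAC arrays alone, where 0.549% of all genes passed. The shared spread is thus narrower than that of the TAC mice and wider than that of the SHAM mice for this gene, and the call differs between these fits in both surgeries. Over the omissions of each of the 36 arrays in turn the adjusted p of the TAC rhythm ran from 0.000391 to 0.0308, and it did not pass on leaving out all arrays of replicate 2 or of replicate 3 (highest adjusted p 0.181).

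The amplitude of Rcan1 was 0.263 ± 0.179 larger in TAC than in SHAM and its peak 1.83 ± 1.52 h earlier, and the difference in rhythm did not pass (limma, adjusted p = 0.872). Its 2 probe sets agreed closely, with a Pearson correlation of 0.96 over the arrays of each surgery, and each had a TAC rhythm by itself (limma, adjusted p = 0.00457 and 0.0137, over all probe sets), a test that 3.87% of probe sets passed. In the test of any shape in TAC they had adjusted p-values of 0.0414 and 0.0722, where 4.52% of probe sets passed. The arrays of TAC ZT23 replicate 1 and TAC ZT03 replicate 3, Rcan1 at -0.04 and 1.17, carried airway epithelial transcripts (mean of 8 markers 1.283 and 1.028). SHAM ZT11 replicate 3 carried thymocyte transcripts (mean 2.075), and on all other arrays these means were at most 0.86. Without these 3 arrays the TAC amplitude of Rcan1 was 0.692 (limma, adjusted p = 0.0011), where 691 genes passed in place of 539. The test of any shape in TAC gave an adjusted p of 0.000224 in place of 0.0513, where 985 genes passed in place of 652. The difference in rhythm still did not pass (adjusted p = 0.811, unadjusted 0.0307 in place of 0.165). Nor did the difference in time course (adjusted p = 0.112, unadjusted 0.000453 in place of 0.319), which 23 genes passed in place of 2.

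**Figure D2:**
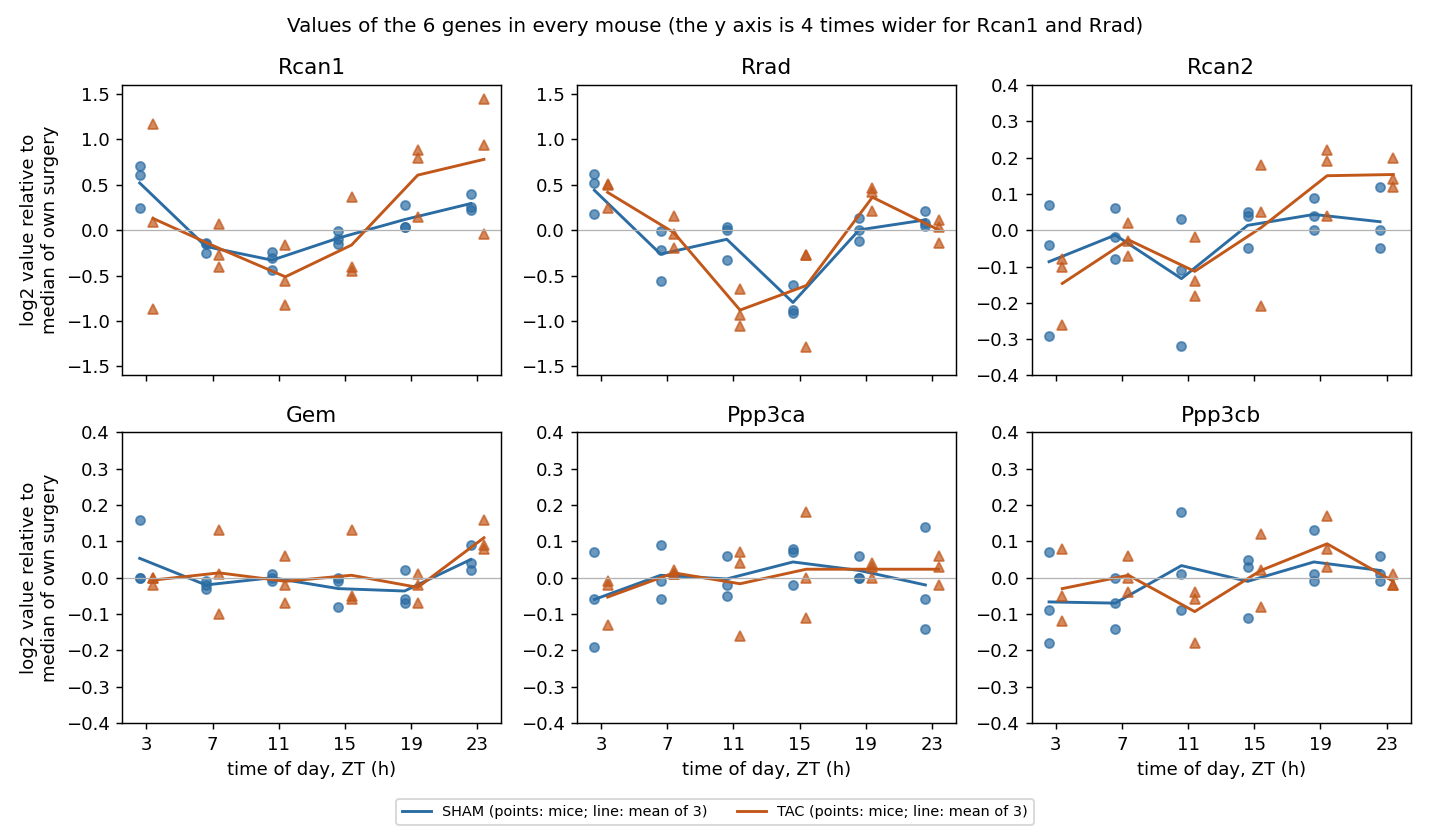
Value of each of the 6 genes in every mouse (y axis, log2 relative to the median of its own surgery, 4 times wider for Rcan1 and Rrad) against time of day (x axis, ZT in h); circles are SHAM mice, triangles TAC mice, and lines join the means of 3. Rcan1 in TAC spreads from -0.87 to 1.17 at ZT03, and Rrad falls lowest at ZT15 in SHAM and at ZT11 in TAC.

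Rcan1 varied more between mice after TAC than after SHAM surgery, a comparison added after seeing the data. Its SD between mice of the same time was 0.135 in SHAM and 0.599 in TAC, a ratio of 4.43. Relabelling surgery among the mice of each time 100000 times gave a two-sided p of 0.00082 (permutation test, not adjusted over the 6 genes). Mice varied more in TAC for most of the transcriptome, 71.9% of all genes, with a median ratio of 1.23, and 0.169% of all genes had a ratio above that of Rcan1. The largest TAC group SDs of Rcan1 were 1.021 at ZT03 and 0.75 at ZT23. Each of these groups includes an array that carried airway transcripts, and the comparison of spread was not repeated without them. The remaining members gave ratios between 0.81 for Ppp3cb and 1.53 for Gem, with permutation p-values of 0.232 to 0.834. Rrad, which had an amplitude of similar size, had an SD of 0.192 in SHAM and 0.282 in TAC, a ratio of 1.47 (permutation p = 0.465).

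**Figure D3:**
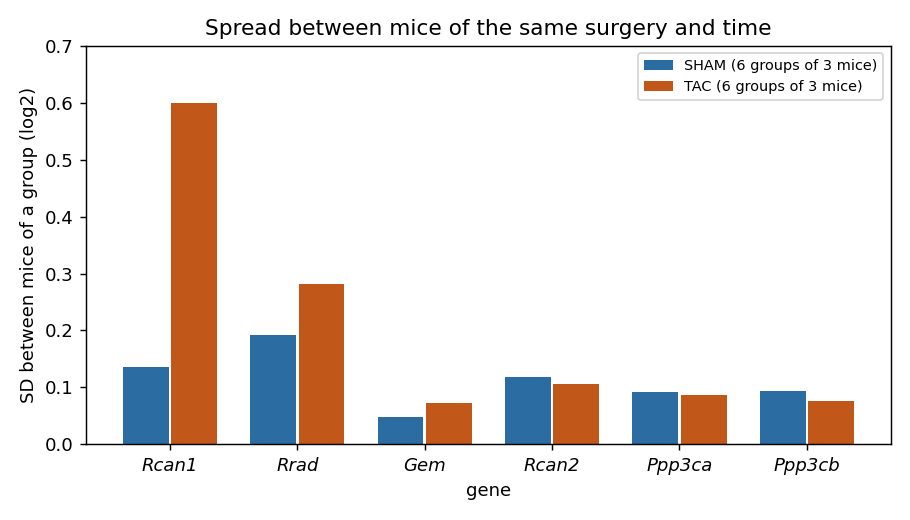
Standard deviation between mice of the same surgery and time (y axis, log2 units, pooled over 6 groups of 3 mice) for each of the 6 genes. The bar of Rcan1 in TAC, 0.599, is above 0.135 in SHAM and above every other bar.

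Rcan1 was set against the mean of 9 measured genes of load and hypertrophy (Nppa, Nppb, Myh7, Acta1, Ankrd1, Fhl1, Postn, Col1a1 and Col3a1), since these are known to rise with pressure on the ventricle. Of the 9, 2 passed for a rhythm in SHAM and 0 in TAC (limma; 4 and 3 at an unadjusted p under 0.05), and 3 and 5 passed the test of any shape. Postn, Col1a1 and Col3a1 are also on the fibroblast marker list used here, and Nppa on the atrial one. At TAC ZT03 the mouse with the lowest Rcan1 (-0.87) had a list mean of -0.7983, the middle one (0.09) -0.2316 and the highest (1.17) 0.4298. At TAC ZT23 there was no such order: the list means were 0.7397, 0.5648 and 0.6416 beside Rcan1 at -0.04, 0.94 and 1.44. The ZT03 mouse at 1.17 also carried airway transcripts. Its mean over the 17 measured clock genes was -0.1284, against 0.098 and 0.0761 in the ZT03 mice at -0.87 and 0.09. The SHAM mice of ZT03 were at -0.0986, -0.1156 and -0.1016, nearer to the TAC mouse at -0.1284. This mean joins genes with different peak times, such as Nr1d1 (ZT6.65 in SHAM) and Per2 (ZT13.2). The parts of clock genes and airway transcripts in the spread of Rcan1 at TAC ZT03 were not tested. Over the 18 TAC arrays r with the load list was 0.40 and the Spearman correlation 0.34 (permutation p = 0.0966 and 0.165, adjusted 0.386 and 0.538 over 12 relations), and for deviations from the group means r was 0.65 (exact permutation p = 0.0333, adjusted 0.327). Over the 18 SHAM arrays r was 0.67 (permutation p = 0.00222, adjusted 0.0266) and the Spearman correlation 0.62 (permutation p = 0.00857, adjusted 0.103). Without the 2 SHAM arrays farthest from the median of Rcan1, a choice that narrows the range of Rcan1, r was 0.48. The call in SHAM was thus not kept without those arrays. For deviations from the group means over the 18 SHAM arrays r was 0.47 (exact permutation p = 0.0544, adjusted 0.327). Without the 2 farthest arrays this within-time r was 0.57, and without the 1 SHAM array with thymocyte transcripts the pooled r was 0.69 and passed (permutation p = 0.00239, adjusted 0.0287). None of the other 11 relations of this family passed.

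**Figure D4:**
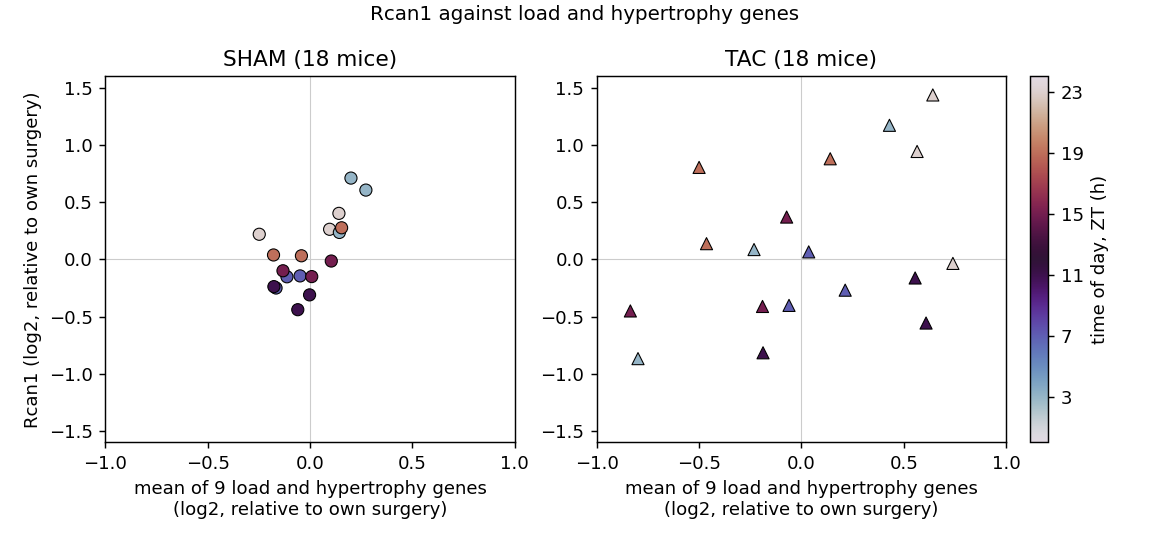
Rcan1 (y axis, log2 relative to the median of its surgery) against the mean of 9 load and hypertrophy genes (x axis, same scale), 1 point per mouse, coloured by time of day, SHAM and TAC in separate panels. TAC mice cover a wider range on both axes (list mean -0.84 to 0.74) than SHAM mice (-0.25 to 0.27).

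Rrad (chromosome 8, 104628070 to 104631350, 1 probe set) was high at ZT03 in both surgeries and lowest at ZT15 in SHAM and at ZT11 in TAC. In SHAM hearts the mice of ZT03 were at 0.18, 0.62 and 0.52 and those of ZT15 at -0.60, -0.91 and -0.88, with no overlap. At ZT07 they were at -0.56, -0.01 and -0.22, at ZT11 at -0.33, 0.00 and 0.03, at ZT19 at 0.13, 0.00 and -0.12, and at ZT23 at 0.21, 0.05 and 0.08. The low point of SHAM was thus a single time, ZT15, below every other SHAM mouse. ZT15 was picked from these values, and the share of all genes with such a low time was not counted. The mean fell by 0.70 ± 0.15 (SE of the difference) from ZT11 to ZT15 and rose by 0.80 ± 0.12 from ZT15 to ZT19. The amplitude was 0.428 ± 0.108 with a peak at ZT1.73 ± 0.964 h and a fold of 1.81 (limma, adjusted p = 0.0343; test of any shape, adjusted p = 0.000999).

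In TAC hearts the mice of ZT03 were at 0.24, 0.50 and 0.51, and those of ZT19 at 0.42, 0.21 and 0.46. The low point came at ZT11, with -0.65, -0.93 and -1.06, and at ZT15 the mice were split, at -1.29, -0.27 and -0.27. At ZT07 they were at 0.16, -0.20 and -0.04, and at ZT23 at -0.14, 0.04 and 0.11. All 6 mice of ZT11 and ZT15 lay below the other 12 TAC mice, a split picked from these values and not counted over all genes. The mean fell by 0.85 ± 0.16 from ZT07 to ZT11 and rose by 0.97 ± 0.35 from ZT15 to ZT19. The amplitude was 0.561 ± 0.108, the 18th largest in TAC, with a peak at ZT0.284 ± 0.735 h and a fold of 2.18 (limma, adjusted p = 0.00423; any shape, adjusted p = 8.36e-05). With the arrays of 1 surgery fitted alone Rrad passed in both, with an adjusted p of 0.0109 in SHAM and 0.0407 in TAC.

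The groups of ZT11 stood apart between the surgeries: -0.33, 0.00 and 0.03 in SHAM, -0.65, -0.93 and -1.06 in TAC, on scales centred separately. The difference in time course of Rrad had an unadjusted p of 0.00198 and an adjusted p of 0.307 (limma, interaction of surgery and time). Without TAC ZT15 replicate 1, the mouse at -1.29, its adjusted p was 0.0115, the one single array whose omission moved it past the threshold. In that omission 16 of all genes passed this test, in place of 2. Over all 36 omissions the adjusted p of Rrad ran from 0.0115 to 0.666. The SHAM rhythm was the less stable of its calls: it was lost on leaving out any 1 of 6 SHAM arrays (the 3 of ZT15, replicates 2 and 3 of ZT03, and replicate 1 of ZT23), with adjusted p-values up to 0.105. The TAC rhythm passed in all 36 single omissions, with adjusted p-values from 0.00126 to 0.0167, and among the other alternatives it was lost only on leaving out all arrays of replicate 2 or of replicate 3.

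Endothelial markers were lowest at ZT11 in both surgeries, as Rcan1 was, with a SHAM mean over 8 genes of -0.15 ± 0.11 (SD, n = 3) at ZT11, against 0.08 ± 0.03 at ZT23. The SHAM arrays of ZT11 were at -0.0608, -0.1101 and -0.28, the last being the array with thymocyte transcripts. The SHAM mean at ZT07 was -0.07 ± 0.07. The means and the covariate of this paragraph keep that array. From ZT11 to ZT15, where Rrad fell in SHAM, the SHAM marker mean went from -0.15 ± 0.11 to -0.05 ± 0.05. In TAC the mean was -0.14 ± 0.06 at ZT11, against 0.07 ± 0.05 at ZT19. Of the 8, 4 passed for a rhythm in SHAM and 0 in TAC, where 4 had an unadjusted p under 0.05. With this mean as a covariate, an alternative chosen after seeing the data, the TAC amplitude of Rcan1 was 0.638 (limma, adjusted p = 0.0498) and that of Rrad 0.434 in place of 0.561 (adjusted p = 0.0482). In SHAM the amplitude of Rcan1 was 0.229 in place of 0.37 (limma, adjusted p = 0.716). That of Rrad was 0.426 in place of 0.428 and did not pass (adjusted p = 0.12). With the covariate fewer of all genes passed: 331 in place of 692 for a SHAM rhythm, and 304 in place of 539 for a TAC rhythm. The test of any shape passed for Rrad in both surgeries with the covariate (adjusted p = 0.00525 in SHAM and 0.00153 in TAC) and for Rcan1 in neither (0.971 and 0.18). In this test 188 genes passed in SHAM in place of 418, and 545 in TAC in place of 652. Of the 11 ventricular cardiomyocyte markers and the 6 smooth muscle markers, none passed in either surgery (limma; 1 cardiomyocyte marker had an unadjusted p under 0.05, in TAC). Of the 8 fibroblast markers 0 passed for a rhythm in either surgery (2 in SHAM and 3 in TAC at an unadjusted p under 0.05), and 4 passed the test of any shape in TAC. The fibroblast mean in SHAM was 0.14 ± 0.08 at ZT03 and -0.09 ± 0.04 at ZT11. In TAC it was -0.11 ± 0.49 and 0.30 ± 0.43 at these times. Of the 7 atrial markers 2 passed for a rhythm in SHAM and 0 in TAC (4 in each unadjusted), and 4 passed the test of any shape in TAC. The part of these lists in the time courses of Rcan1 and Rrad was not tested.

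Rcan2 (chromosome 17, 43801352 to 44039516), a relative of Rcan1 known as a thyroid hormone responsive gene, moved less than Rcan1. In TAC hearts its mice were at 0.19, 0.22 and 0.04 at ZT19 and 0.20, 0.14 and 0.12 at ZT23. At ZT03 they were at -0.26, -0.10 and -0.08 and at ZT11 at -0.02, -0.18 and -0.14. The first pair of groups did not overlap with the second, a choice of times made from these values. The 3 mice of ZT15, at 0.05, 0.18 and -0.21, covered nearly the whole range. The TAC amplitude was 0.133 ± 0.0382 with a peak at ZT20.0 ± 1.1 h and a fold of 1.20, and it did not pass (limma, adjusted p = 0.0828, unadjusted 0.00553). Without the ZT15 mouse at -0.21 the TAC amplitude passed (adjusted p = 0.0408). It also passed with array weights (limma, adjusted p = 0.0314), with atrial and adipocyte means or the load list mean as covariates, and without all arrays of replicate 3, so the call depends on these choices. In SHAM hearts the values ran from -0.325 to 0.118, with an amplitude of 0.0626 ± 0.0382 (limma, adjusted p = 0.545). The amplitude was 0.0707 ± 0.0541 larger in TAC, and the difference in rhythm did not pass (limma, adjusted p = 0.922).

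The catalytic subunits of calcineurin varied little over the day. Ppp3ca, the alpha subunit (chromosome 3, 136669714 to 136937727), ran from -0.185 to 0.138 in SHAM and from -0.158 to 0.181 in TAC, with amplitudes of 0.0391 ± 0.0274 and 0.0244 ± 0.0274 (limma, adjusted p = 0.622 and 0.836). Ppp3cb, the beta subunit that the heart's growth response is known to need (chromosome 14, 20499364 to 20546573), ran from -0.18 to 0.181 in SHAM and from -0.184 to 0.168 in TAC. Its amplitudes were 0.0499 ± 0.0286 and 0.0525 ± 0.0286 (limma, adjusted p = 0.511 and 0.487). At no time did either subunit's group mean lie more than 0.095 from the surgery's median. The highest Ppp3cb mean in TAC was 0.093 ± 0.071 (SD, n = 3) at ZT19 and the lowest -0.095 ± 0.078 at ZT11. The 2 Ppp3cb probe sets correlated at 0.61 over SHAM arrays and 0.08 over TAC arrays, so the averaged TAC value of this gene joins probe sets that did not move together.

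Gem (chromosome 4, 11704447 to 11714993, 1 probe set), the other RGK GTPase among the 6, had the smallest SD of the 6 between mice of the same time (SHAM 0.048, TAC 0.073). Its values ran from -0.08 to 0.163 in SHAM and from -0.105 to 0.155 in TAC. The highest TAC group was ZT23, at 0.16, 0.08 and 0.09, a mean of 0.111 ± 0.039 (SD, n = 3). Its amplitudes were 0.0419 ± 0.0227 in SHAM and 0.0317 ± 0.0227 in TAC (limma, adjusted p = 0.476 and 0.653). The SD of its probe set over the arrays was at the 8.1 percentile of all probe sets, while those of Rcan1 and Rrad were at 99.7 and 99.5, and because levels were centred away a flat gene cannot be told from one near the background of the array.

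Of 19 calcineurin subunits and binding partners 11 were measured, and 0 passed for a rhythm in either surgery (limma; 2 in each at an unadjusted p under 0.05), with a median amplitude of 0.0434 in SHAM and 0.0422 in TAC beside 0.0482 and 0.0473 over all genes. Ppp3r1, the regulatory subunit of calcineurin, had amplitudes of 0.0641 ± 0.0177 and 0.0558 ± 0.0177 (limma, adjusted p = 0.0609 and 0.13). The values for Fkbp1a, which presents the drug FK506 to calcineurin, were 0.0723 ± 0.0255 and 0.0406 ± 0.0255 (limma, adjusted p = 0.194 and 0.578).

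Of 18 NFAT factors, partners and kinases 17 were measured, and 2 passed in each surgery. Gata4, a cardiac transcription factor that binds NFAT, peaked at ZT0.423 in SHAM, with an amplitude of 0.177 ± 0.0457, and at ZT1.49 in TAC, with 0.205 ± 0.0457 (limma, adjusted p = 0.0398 and 0.0171). Homer1, a scaffold protein, passed in SHAM (0.122 ± 0.0245, peak ZT17.9, adjusted p = 0.00432) and had an adjusted p of 0.0515 in TAC. Dyrk1a, a kinase that primes NFAT for export from the nucleus, passed in TAC (0.113 ± 0.0278, peak ZT20.5, adjusted p = 0.0344). In SHAM its adjusted p was 0.716, and the difference in rhythm had an adjusted p of 0.861. The list's median amplitude was 0.0401 in SHAM and 0.0612 in TAC.

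Calcium channel subunits are the proteins on which RGK GTPases act. Cacna2d1, an accessory subunit of the L-type channel, gave amplitudes of 0.079 ± 0.034 (SHAM) and 0.0321 ± 0.034 (TAC; limma, adjusted p = 0.329 and 0.819). Cacnb1, a beta subunit, had 0.0521 ± 0.0245 and 0.0088 ± 0.0245 (limma, adjusted p = 0.385 and 0.973), and Cacnb4, another beta subunit, 0.0227 ± 0.0159 and 0.0338 ± 0.0159 (adjusted p = 0.622 and 0.381). The 17 measured clock genes give the scale on which these lists can be read: 15 passed in each surgery, with median amplitudes of 0.338 and 0.264.

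The 6 genes did not form 1 group across mice. Over 15 pairs in each surgery, none of the 30 correlations passed after adjustment. Rcan1 and Rrad came nearest in SHAM, with r = 0.65 and a Spearman correlation of 0.66 (permutation p = 0.00324 and 0.00343, adjusted 0.0517 and 0.103). Their r was 0.43 without the 2 arrays farthest from the median of Rcan1 and 0.49 for deviations from the group means (exact permutation p = 0.0959). In TAC the pair had r = 0.43 (permutation p = 0.075, adjusted 0.205) and 0.01 for deviations from the group means. The subunits Ppp3ca and Ppp3cb came nearest in TAC, with r = 0.66 and a Spearman correlation of 0.41 (permutation p = 0.00345 and 0.0947, adjusted 0.0517 and 0.344) and 0.75 within times (exact permutation p = 0.0125, adjusted 0.376). Without the 2 arrays farthest from the median of Ppp3ca r was 0.41. Leaving out the 3 arrays with thymus or airway transcripts brought 3 SHAM pairs past the threshold: Rcan1 with Rrad (r = 0.74, adjusted p = 0.0198, permutation test over 17 arrays), Rcan2 with Ppp3ca (r = 0.65, adjusted 0.0448) and Ppp3ca with Gem (r = -0.64, adjusted 0.0448). In TAC it brought 1 pair past it, Ppp3ca with Ppp3cb (r = 0.71, adjusted p = 0.0378, permutation test over 16 arrays).

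The genes most like each member were taken from Pearson correlations over all 36 arrays, which share the time course and the RNA of each mouse. Rcan1 was most like Meox1 (r = 0.87), Ckap4 (0.83), Tspan9 (0.77), Tlr4 (0.77) and the TWEAK receptor Tnfrsf12a (0.77). Meox1, a homeobox factor known from activated fibroblasts, passed for a rhythm in TAC, with an amplitude of 0.498 (limma, adjusted p = 0.00548), and not in SHAM (0.401). Ckap4, Tlr4 and Tnfrsf12a passed in TAC too (limma, adjusted p = 0.0376, 0.000176 and 0.000221), and Tspan9 did not (0.271). These genes were picked for their likeness to Rcan1 on the same arrays, so their TAC rhythms are not separate evidence. Rrad was most like Sox4 (0.80), Septin4 (0.78), Gimap4 (0.77), the apelin receptor Aplnr (0.75) and Mtss1 (0.75). Rcan2 was most like Habp4 (0.83), Hipk3 (0.80), Zfp91 (0.79), Ttc7b (0.77) and Slmap (0.77). The nearest genes of Ppp3ca, led by Lamtor5 (0.84) and Rbbp7 (0.81), and of Ppp3cb, led by Rnpc3 (0.75) and Smarca5 (0.74), were other genes again. Gem had the weakest neighbours, from Kcne4 (0.66) to Trim13 (0.56). No gene was among the 5 nearest of more than 1 member.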

How the data were processed

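The authors deposited 1 table of 22690 probe sets by array. The deposited values, read here as log2, had been centred by probe set on a median of 0 within each surgery (every such median is within 5e-07 of 0). Neither the log base nor how probes were summarised and normalized is stated in the sources used here. Per the labels, frozen hearts gave total RNA (Trizol), from which biotinylated cRNA was prepared. Surgery, time and replicate were taken from the sample titles, and per the labels' design text the 3 mice of a group are biological replicates. Array medians ran from -0.036 to 0.027, and no arrays were identical. Of the probe sets, 20380 had 1 gene symbol, 64 were controls, 691 had several symbols and 1555 none; 20351 matched by Entrez number to RefSeq. A gene's value is the mean of its probe sets, for 12393 genes, 4956 with several probe sets.

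The fits used limma 3.58.1 in R 4.3.3: a 24 h cosine and sine for each surgery, and a model of 12 group means for tests of any shape. Both took 1 spread per gene from all 36 arrays. They were tested on simulated data. Correlations and the comparison of spread used 100000 permutations, or all 46656 relabellings within times for deviations from group means (SciPy 1.17.1, NumPy 2.4.6, pandas 2.3.3, matplotlib 3.10.9). The number of arrays limits the precision. Promoter windows came from RefSeq (GRCm38.p6). The comparison of spread and the endothelial covariate were added after seeing the data. Alternatives covered normalization, probe sets, spread, array weights, filters, covariates and omitted arrays.

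The members and gene lists were chosen with earlier results of these data known. Named genes are the 6 members, up to 4 genes of each pathway list with the smallest p of a rhythm, and for each member the 5 genes most correlated with it, clone-like symbols skipped. The load, clock and cell type lists are given as counts and means. Of the cell type lists not counted in the results, genes passing for a rhythm in SHAM and TAC numbered 1 and 1 of 8 macrophage and 0 and 0 of 5 white adipocyte, 8 thymocyte, 8 airway and 8 skeletal muscle genes; of these, the test of any shape called 1 macrophage and 1 adipocyte gene in SHAM and 1 macrophage gene in TAC. Of 15 immediate early genes 2 passed in each surgery. Of the list of RGK relatives and calcium channel subunits, the counts and 1 of the 4 genes chosen by the rule are not reported here.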

Additional observations from a re-analysis of the deposited data

How the results depend on the processing

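The counts of members passing are given as main value against alternative. SHAM rhythm (1 gene, Rrad) was 0 with an intensity trend, 0 with the load list mean as a covariate, 0 with the endothelial mean, 2 with array weights and 2 with SHAM arrays alone, adding Rcan1; leaving out arrays or replicate numbers gave 0 to 1. TAC rhythm (2 genes) was 1 with TAC arrays alone, where Rcan1 was lost, 3 with array weights, with the atrial and adipocyte covariates or with the load covariate, each adding Rcan2, and 0 to 3 with arrays or replicate numbers left out. A change over the 6 times in SHAM (1 gene) was 2 with array weights and 2 with SHAM arrays alone, and 0 to 1 with omissions. A change over the 6 times in TAC (1 gene) was 2 with each probe set by itself, quantile normalization, an intensity trend, the SD filter, the load covariate or without the 3 arrays that carried thymus or airway transcripts, 3 with array weights, and 1 to 2 with omissions; the added gene was Rcan1 in the named settings other than array weights, which added Rcan2 too. The difference in time course (0 genes) was 1, Rrad, with array weights, and 0 to 1 with omissions; the difference in rhythm was 0 throughout. With the replicate block a change over the 6 times in TAC was called for 2 genes, adding Rcan2, the TAC rhythm for 3, and the other counts did not move. The replicate numbers were not treated as pairing the arrays. Deviations of same-number pairs correlated above 0.1 in 66 of 198 pairs (range -0.358 to 0.433, median 0.0354), and the median for other numbers was -0.0133. Of 36 arrays 23 were closest to their own number, a hint from the data and not from the design. The correlations between members took no account of the replicate number, and its part in them was not tested. Correlated pairs went from 0 to 3 in SHAM and from 0 to 1 in TAC without the 3 arrays that carried thymus or airway transcripts, and relations with the load list from 1 to 0 without the 2 farthest arrays. None of the pairs and relations that passed in any setting changed sign; some weak correlations that passed in none did, such as Ppp3ca with the load list in TAC (-0.13, and 0.42 without the 2 farthest arrays). The cause of these changes was not tested. Array weights raised the genes passing for a SHAM rhythm from 692 to 1974 and quantile normalization to 1423, and leaving out replicate 2 lowered them to 119. With the endothelial covariate they were 331. A TAC rhythm passed for 539 genes, and for 637 with array weights. Genes with a change over the 6 times in TAC numbered 652 in the main fit. They were 2839 with array weights, 985 without the 3 arrays named above, 399 with quantile normalization and 292 with the load covariate. Array weights also raised a change in SHAM from 418 to 1882 genes and a difference in time course from 2 to 338. The member counts are to be read beside these totals.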
